A study of Populus tremula x Populus alba with 6 samples.

Results

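The comparison described here is that of 2 poplar lines carrying an RNA interference (RNAi) construct against ddm1 with wild type (WT), all under control watering. Its members are the transposable element (TE) loci of the 3 control lists, 329 of the 436 loci that the series lists in all. A locus was taken as the same in different lists where chromosome, start and end were identical.

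Shoot apical meristems of a single hybrid poplar clone were assayed by mobilome-seq, which enriches and amplifies extrachromosomal circular DNA before sequencing. The 3 libraries were WT, RNAi ddm1 line 15 and RNAi ddm1 line 23, none of them exposed to drought, and all 3 genotypes were also sequenced after drought and rewatering. Each group is 1 library, so no value below has a replicate and nothing was tested for significance. The lines are separate transformants, were kept apart throughout and are not replicates of each other. The labels give neither the RNAi promoter nor the number of plants per library, and a DNA assay does not measure how far the ddm1 transcript was lowered.

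DDM1 is a chromatin remodeller that helps plants keep DNA methylation on transposons and so keep them silent. LTR retrotransposons, the Gypsy and Copia superfamilies, carry a long terminal repeat (LTR) at each end of an internal coding part, and their reverse-transcribed copies can close into circles. L1 elements and SINEs copy themselves through RNA without LTRs, cut-and-paste DNA transposons such as CACTA/EnSpm and hAT are excised as DNA, and Helitrons are thought to move by a rolling-circle mechanism.

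Each listed locus carries a depth value and a split-read value, both whole numbers not scaled to library size, and the fraction of its length covered by each. Split reads would span a junction such as that of a closed circle. A locus missing from a list is called unlisted here, because the sources used here do not give the listing threshold, and no fold was formed against an unlisted library.

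The WT list held 149 loci (exact 95% Poisson interval 126 to 175), the line 15 list 169 (144 to 196) and the line 23 list 109 (89.5 to 131). Line 15 thus had more listed loci than WT and line 23 fewer. The WT interval overlapped those of both lines, while those of the lines did not overlap each other. The counts were not tested against each other. With a split-read value of at least 10 the lists held 73, 57 and 35 loci, and both lines then lay below WT. Intervals on counts and shares here cover counting error only, because amplified circles are not independent molecules. The summed depth values were 92011 for WT, 69585 for line 15 and 44510 for line 23, in another order than the numbers of loci. A single locus, Gypsy23-PTR_I-int at 44984628 to 44984848 on chromosome 1, held 53.5%, 74.3% and 81.8% of those sums, so sums and means of depth describe that locus more than the lists. Median depth values were 36, 30 and 28.

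Listed loci of both RNAi lines were shorter, and those of line 15 were more completely covered, with less of a difference in line 23. Median length was 389 bp for WT, 256 bp for line 15 and 280 bp for line 23, and loci over 1000 bp numbered 25, 13 and 10. The longest single stretches, the 10557 bp of Gypsy21-PTR_I-int on chromosome 2 and the 8194 bp of Gypsy-27_PTr-I-int on chromosome 13, were among the control lists only in that of WT. The share of loci covered over their whole length was 21.5% in WT (32 loci), 39.6% in line 15 (67 loci) and 27.5% in line 23 (30 loci). Median covered fractions were 0.925, 0.976 and 0.936. Among loci of a single list they were 0.903 for WT, 0.971 for line 15 and 0.879 for line 23, so line 23 was then below WT. The lowest fraction of any listed locus was 0.801, and 33 WT loci, 27 line 15 loci and 20 line 23 loci lay below 0.85, just inside the lowest value observed.

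Of the 329 loci, 20 (6.08%) were in all 3 lists and 19 (5.78%) in both RNAi lists but not in WT. A further 27 were in WT and line 15, and 12 in WT and line 23. The rest stood in 1 list each: 103 in line 15, 58 in line 23 and 90 in WT. Most loci of every list were therefore its own, 60.4% in WT, 60.9% in line 15 and 53.2% in line 23. Single-list loci had low values. Their median depth was 21 for WT, 21 for line 15 and 13 for line 23, against 119.5, 126 and 74.5 at the loci shared by all 3. A depth value under 20 was found at 47.8% of the WT-only loci, 46.6% of the line 15-only loci and 55.2% of the line 23-only loci. Among the loci of all 3 lists, none in WT and 1 in either line was under 20.

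**Figure D1:**
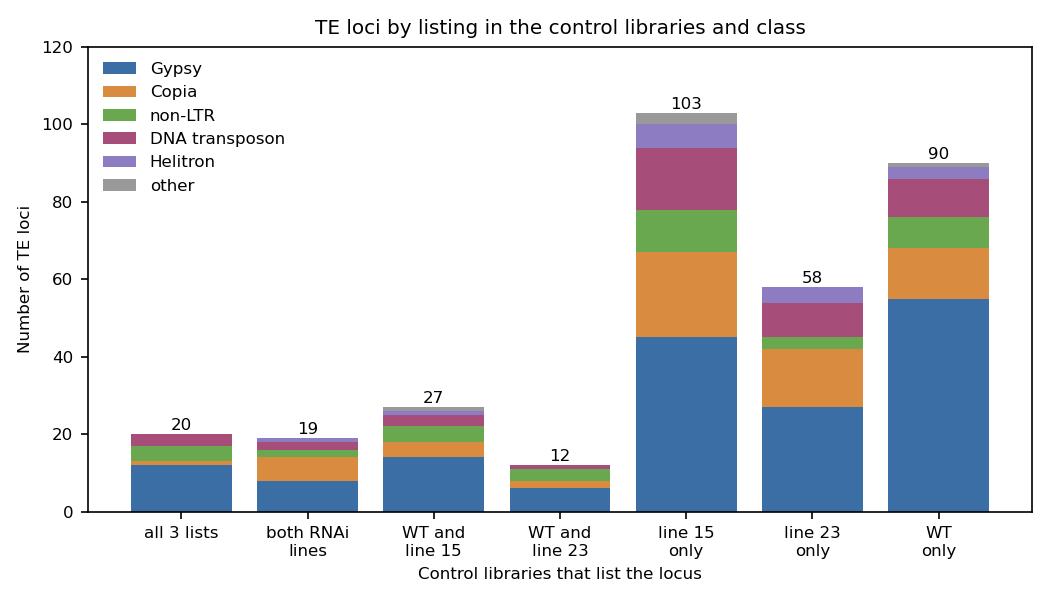
Number of TE loci (vertical axis) by which control libraries list them (horizontal axis), with bar segments for the class of the first family name and the total above each bar. Single-list loci (103, 58 and 90) outnumber the 20 loci of all 3 lists and the 19 of both RNAi lines alone.

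**Figure D2:**
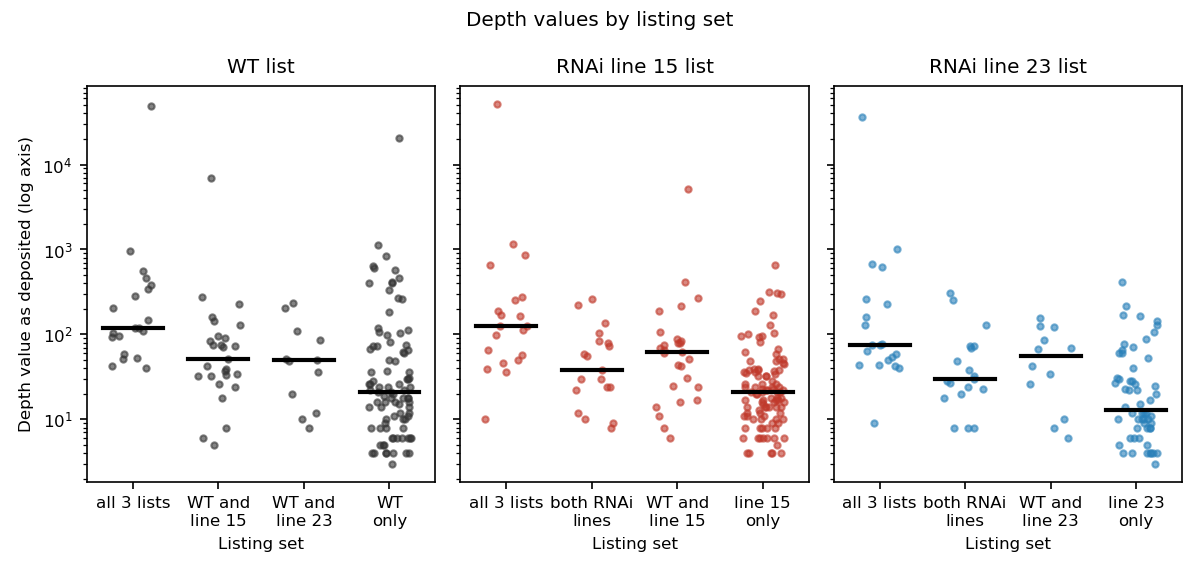
Depth value as deposited (log axis) of every locus in the WT, line 15 and line 23 control lists, split by which control libraries list the locus. Each point is 1 locus and the black line is the median, which is lowest for single-list loci (21, 21 and 13) in every panel.

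The loci listed in both RNAi lines and not in WT covered 5 classes: 8 Gypsy, 6 Copia, 2 SINE, 2 DNA transposon and 1 Helitron locus. Of the 14 LTR retrotransposon loci, 11 were named for the LTR and 3 for the internal part. All but 5 of the 19 were shorter than 350 bp, with lengths from 120 to 1109 bp. Every one belonged to a family that the WT list held at another locus. The same held for 82.5% of the line 15-only loci and 74.1% of the line 23-only loci. For sets that include WT, the share reached 91.7% at loci of WT and line 23 and 90% at loci of all 3 lists. Loci of WT and line 15 had 85.2%, and WT-only loci 80%. High shares were thus not limited to the set of 19. The set was defined by the lists themselves, so its size of 5.78% of the loci is a description with nothing to test.

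The highest depth value of these 19 loci was that of Copia-93_PTr-LTR on chromosome 14 (15385933 to 15386186), with 222 in line 15 and 311 in line 23. Its split-read values were only 3 and 7, while 0.913 and 0.996 of its 254 bp were covered. Copia-93_PTr is an LTR retrotransposon family, and a further copy of its LTR, on chromosome 6 (8658088 to 8658339), had depths of 22 and 27. No drought list held the chromosome 14 locus. WT after drought listed the chromosome 6 locus at a depth of 11.

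DNA-3-3_PTr on chromosome 1 (24681274 to 24681590, 317 bp) came next, with nearly equal depth values of 258 in line 15 and 257 in line 23. Its family name places it among the DNA transposons. After drought it was again listed in both RNAi lines, at 324 and 256, and again not in WT, so among the 6 libraries it was listed in every RNAi one and in no WT one. POPGY1_I-int on chromosome 19 (6885698 to 6886242), the internal part of a Gypsy element, had the same pattern. Its depth value was 72 in both RNAi control libraries and 126 and 63 after drought, with split-read values of 12 and 5 under control watering. These 2 were the only ones of the 19 found in all 4 RNAi libraries and neither WT library. Copia43-PTR_I-int on chromosome 3 (7814725 to 7815833) was listed in 3 RNAi libraries and in neither WT one. At 1109 bp it was the longest of the 19. Its depth values were 79 in line 15 and 69 in line 23, and its split-read value in line 15, 92, was the highest of the set and exceeded the depth, against 20 in line 23.

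SINEs are short elements that rely on the machinery of LINEs such as L1. SINE2-2_PTr was listed in both lines on chromosome 3 (17769491 to 17769681), with depth values of 135 and 73. On chromosome 5 (5220663 to 5220839) it had 30 and 23. Both copies were covered over their whole length in both lines, with split-read values from 3 to 7. The chromosome 5 copy was also listed in WT after drought, at a depth of 16. EnSpm2_PTr, a CACTA transposon on chromosome 5 (2400767 to 2400995), had depths of 38 and 20 and split-read values of 22 and 6. It too was listed in WT after drought, at a depth of 29. Helitron-N1_PTr, also on chromosome 5 (4344117 to 4344688), had a depth of 24 in line 15 and 129 in line 23. It was the locus of the set that differed most between the lines, 5.38-fold higher in line 23, although its split-read values were 7 and 5.

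Gypsy LTR fragments made up much of the remainder. Gypsy-71_PTr-LTR appeared on chromosome 4 (17571297 to 17571742), at depths of 105 in line 15 and 28 in line 23, and on chromosome 8 (400236 to 400355), with 83 and 38. Both copies were over 2-fold lower in line 23 on the values as deposited, and the chromosome 8 copy turned to marginally higher (log2 0.01) when depth was divided by the list sum without the highest locus. WT after drought listed the chromosome 8 copy at a depth of 104 and a split-read value of 111, above both RNAi control libraries. Gypsy-79_PTr-LTR on chromosome 19 (6497691 to 6497990) had depths of 55 and 49. For Gypsy-72_PTr-LTR on chromosome 1 (40835193 to 40835830) the depth was 58 and 32 in the RNAi lines, but its highest depth value, 280, was in WT after drought. Line 15 after drought listed it at 60.

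The lowest members of the set were near the smallest values listed. POPGY1_LTR on chromosome 4 (23745263 to 23745411) had a depth of 8 in both lines, and POPGY2_LTR on chromosome 2 (18666790 to 18666931) had 12 and 8. Copia-56_PTr-LTR on chromosome 1 (28339391 to 28339521) had 10 and 8, and Gypsy13-PTR_I-int on chromosome 1 (29032213 to 29032560) had 9 and 18. At these 4 loci the depth was under 20 in both lines. After drought, WT listed POPGY1_LTR at 17, POPGY2_LTR at 24 and Gypsy13-PTR_I-int at 17, and line 15 listed POPGY2_LTR at 8. Copia-56_PTr-LTR on chromosome 5 (2286940 to 2287070) had 24 in both lines and 25 in WT after drought. Copia5-PTR_LTR on chromosome 12 (367000 to 367330) had 30 in both lines.

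Across the 19 loci the depth value was higher in line 15 at 11, higher in line 23 at 4 and equal at 4. The lines differed by less than 2-fold at 15. The median log2 ratio, line 23 over line 15, was -0.17 as deposited, but 0.48 after division by the list sum, when line 23 was the higher at 14, and 0.97 with the highest locus left out of the sums. Split-read values were higher in line 15 at 13 of the loci and were at most 10 in both lines at 13.

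**Figure D3:**
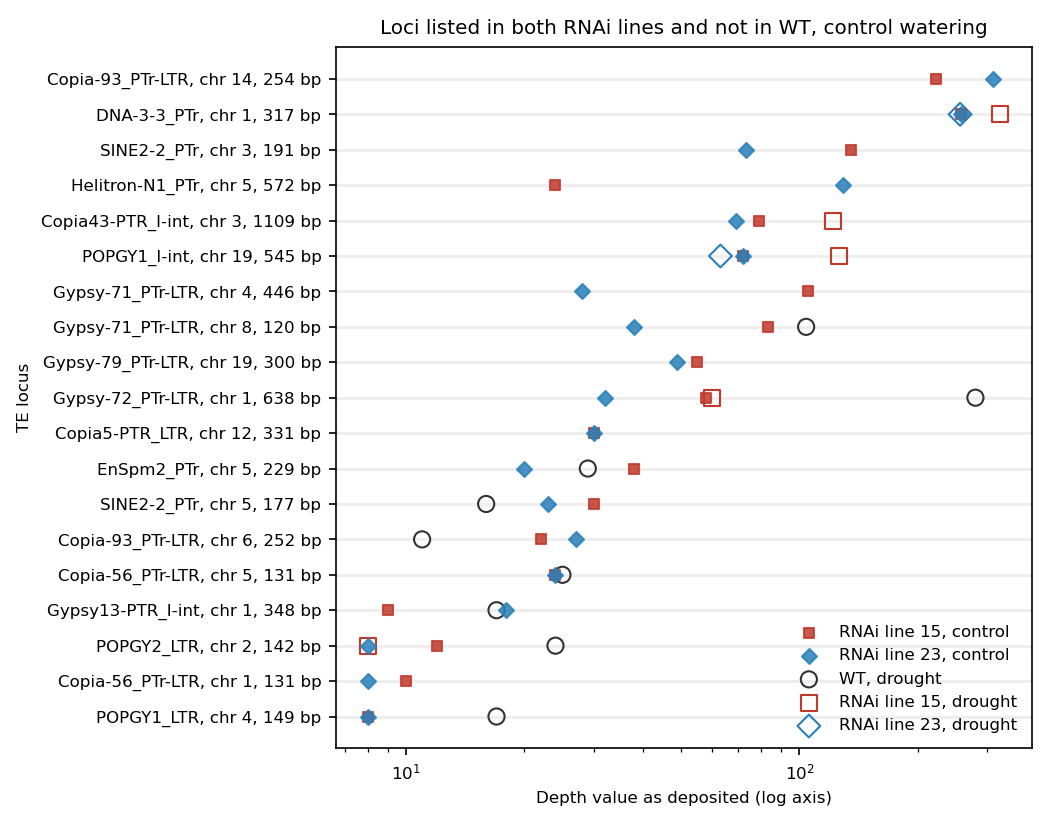
Depth value as deposited (log axis) of the 19 loci listed in both RNAi lines and not in WT under control watering, 1 row per locus with its chromosome and length. Filled symbols are the control libraries and open symbols the drought-rewatered libraries that list the same locus, of which WT (open circles) lists 9.

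The drought-rewatered libraries were not used to define the sets, so listing in them is a separate readout of the same loci. Of the 19 loci in both RNAi lines and not in WT, 12 were listed in at least 1 drought library (63.2%, exact 95% Clopper-Pearson interval 38.4 to 83.7). WT after drought held 9 of them (47.4%), line 15 after drought 5 (26.3%) and line 23 after drought 2 (10.5%). Of all 329 control loci the same libraries held 56 (17.0%), 41 (12.5%) and 28 (8.51%), and 24.9% were in at least 1. The order is also that of the sizes of the drought lists, 115, 79 and 44 loci. Of the 9 loci listed in WT plants under the other watering, 7 were in no RNAi drought library. Only 3 were listed after drought in an RNAi line without being listed in WT.

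Loci in more than 1 control list were listed in a drought library at higher shares than single-list loci, a difference that was not tested. At least 1 drought library listed 15 of the 20 loci of all 3 lists, 16 of the 27 of WT and line 15, and 6 of the 12 of WT and line 23. Of single-list loci, a drought library listed 10 of 103 for line 15 (9.71%), 4 of 58 for line 23 (6.90%) and 19 of 90 for WT (21.1%). The drought library of line 15 held 6 of the line 15-only loci (5.83%) and 6 of the WT-only loci (6.67%). That of line 23 held 2 of the line 23-only loci (3.45%) and 7 of the WT-only loci (7.78%). In either line, the share of its own loci listed again was thus no higher than that of the WT-only loci. WT after drought also held a larger share of WT-only loci (13.3%) than of line 15-only (4.85%) or line 23-only loci (6.90%). Line 15 after drought held 0 of the line 23-only loci, and line 23 after drought held 2.91% of the line 15-only loci. Single-list loci also had the lowest depth values. Among loci with a depth of at least 20 in a control library, the share in any drought library was 14.5% for line 15 only, 15.4% for line 23 only and 23.4% for WT only. The line 23 share was thus over 2 times that of all line 23-only loci. The corresponding shares of loci in more than 1 list lay between 60% and 75%.

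**Figure D4:**
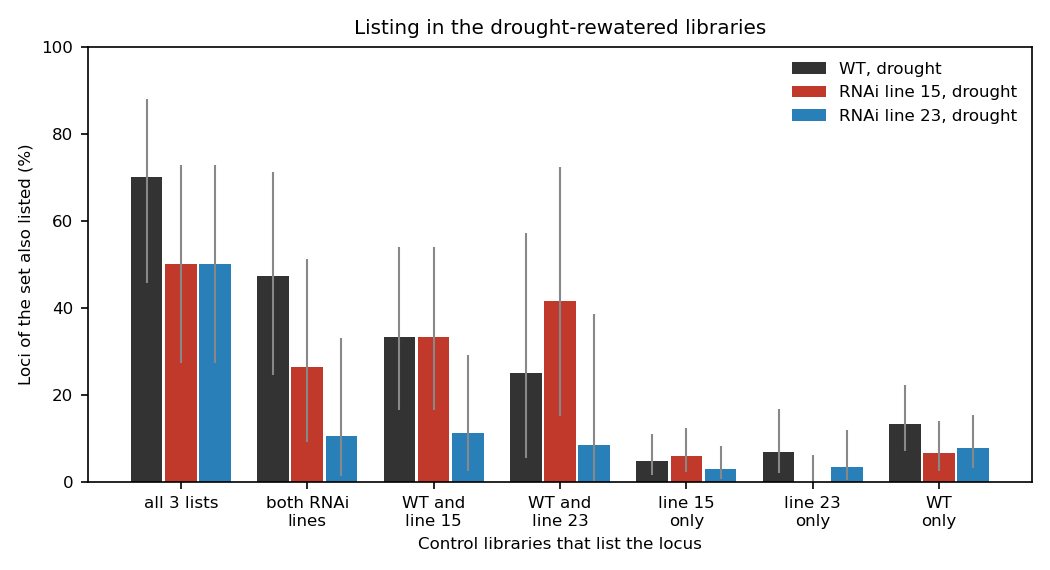
Percent of the loci of each control listing set that are also listed in the drought-rewatered library of WT, line 15 or line 23 (bars from 0), with exact 95% Clopper-Pearson intervals as thin lines (counting error only). No bar of a single-list set exceeds 13.3%, and WT after drought holds 9 of the 19 loci of both RNAi lines.

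Depth could be set against WT only at loci in both lists. These were 47 loci for line 15 (27.8% of its list and 31.5% of the WT list) and 32 for line 23 (29.4% and 21.5%). Both comparisons use the same WT library, so their values stand side by side and do not support each other. The lines themselves shared 39 loci (35.8% of the line 23 list and 23.1% of the line 15 list). Spearman's rho of depth values across the shared loci was 0.73 for line 15 and WT, 0.74 for line 23 and WT, and 0.84 for the lines. Those points share their libraries and a few loci of very high depth.

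In line 15 the median log2 depth ratio over WT was 0.07, from -3.07 to 3.99. At least 2-fold higher were 6 of the 47 loci (12.8%) and at least 2-fold lower 11 (23.4%). In line 23 the median was -0.42, from -2.15 to 2.12, with 3 of 32 loci at least 2-fold higher (9.38%) and 8 at least 2-fold lower (25%). For line 23 over line 15 the median was -0.26, with 4 of 39 loci at least 2-fold higher (10.3%) and 6 at least 2-fold lower (15.4%). These are values as deposited. Dividing by the summed depth of each list moves every log2 ratio up by 0.40 in line 15 and 1.05 in line 23, and leaving the highest locus out of the sums moves it up by 1.26 and 2.40. The medians of line 23 over WT and over line 15 then turn positive. Of the 20 loci in all 3 lists, 6 change direction against WT in line 15 under such scaling and 16 in line 23. The WT sum without the highest locus, 42811, still held 20299 from Gypsy-27_PTr-I-int on chromosome 13, unlisted in both RNAi control libraries. It also held 6927 from SAT-1_PT on chromosome 11, which had 5202 in line 15 and was unlisted in line 23. The shifts and direction turns with the highest locus left out thus rest in part on these WT values.

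DNA transposons had low depth ratios over WT in line 15 and mixed ones in line 23. In line 23, 2 of 4 shared loci were at least 2-fold lower and 1 at least 2-fold higher (log2 1.81). The median log2 ratio there was -1.14 as deposited and became -0.09 after division by the list sum and 1.26 without the highest locus. In line 15, of 6 loci shared with WT, 5 were at least 2-fold lower, with a median log2 ratio of -1.69 that stayed negative on both scalings (-1.28 and -0.43). ENSPM1_PT on chromosome 14 (4297763 to 4298011), a CACTA transposon, had a depth of 956 for WT, 114 for line 15 and 630 for line 23, so line 15 stood far below the other control libraries. After drought it had 186, 102 and 12, and line 23 was then the lowest. DNA-3-3_PTr on chromosome 6 (9140343 to 9140489) had 202 for WT, 36 for line 15 and 63 for line 23, and DNA-3-2B_PTr on chromosome 6 (4752654 to 4752834) had 146, 46 and 40. Both were lower in either line as deposited, but division by the sum without the highest locus turned them to higher in line 23. The exception among the 6 was ENSPM1_PT on chromosome 5 (1052376 to 1052600), which was listed in WT at 26 and in line 15 at 412 and not in line 23. Its split-read value went the other way, 27 in WT and 9 in line 15.

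Non-LTR elements had a median ratio close to that of DNA transposons in line 23, where 4 of 7 shared loci were at least 2-fold lower (median log2 -1.14 as deposited). This median was -0.09 after division by the list sum and 1.26 without the highest locus, so its direction depends on the scale. L1-1_PTr on chromosome 8 (15378192 to 15378803), an L1 retrotransposon, had depth values of 342, 187 and 130 in WT, line 15 and line 23, and split-read values of 181, 173 and 72. L1-2_PTr on chromosome 8 (89800 to 90056) had split-read values of 4, 6 and 6 but depth values of 97, 50 and 44. L1-2_PTr on chromosome 4 (18674617 to 18674754) had 40, 39 and 9, so WT and line 15 were alike there and line 23 lower as deposited. At each of these 3 L1 loci the direction turned in both lines under at least 1 of the scalings.

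Gypsy ratios over WT went both ways as deposited. In line 15, of 26 shared loci, 5 were at least 2-fold higher and 4 at least 2-fold lower (median log2 0.21). In line 23, 12 of 18 were below WT, 2 at least 2-fold higher and 2 at least 2-fold lower (median log2 -0.19). The line 23 median was 0.86 after division by the list sum and 2.21 without the highest locus. Single Gypsy loci had higher values than WT in 1 line or both. Ogre-PT2_I-int on chromosome 1 (41624029 to 41624889), the internal part of an Ogre element, a lineage of very long Gypsy retrotransposons, had depth values of 464 for WT, 1169 for line 15 and 1019 for line 23. Its split-read values were 489, 919 and 1133. It was the one locus of all 3 lists at least 2-fold above WT in both lines as deposited, by 2.52-fold and 2.20-fold, and its log2 ratios were 1.74 and 2.18 after division by the list sums. After drought its depth value was 376 for WT, 228 for line 15 and 1809 for line 23, so line 15 then stood below WT.

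Gypsy21-PTR_I-int on chromosome 1 (46571040 to 46571339) had a depth of 53 for WT, 255 for line 15 and 50 for line 23, with split-read values of 11, 63 and 27. POPGY2_LTR on chromosome 3 (2902731 to 2904312) had 280, 649 and 258. At both, line 15 was higher than WT on every scale, and WT and line 23 were close as deposited. After division by the list sums line 23 was also above WT, with log2 ratios of 0.96 and 0.93. Without the highest locus these were 2.31 and 2.28, against 3.52 and 2.47 in line 15. Gypsy13-PTR_I-int on chromosome 1 (17855805 to 17856101) was lower in line 15 by depth, with 52 for WT, 10 for line 15 and 43 for line 23. Its split-read values were 10, 10 and 8. POPGY1_I-int on chromosome 11 (9760359 to 9760747) had depths of 120, 98 and 58, and its direction turned under scaling in both lines. Per 100 bp the depth values of Ogre-PT2_I-int at 41624029 were 53.9 for WT, 136 for line 15 and 118 for line 23, and those of Gypsy-78_PTr-I-int on chromosome 1 (47450642 to 47451752) were 50.7, 77.5 and 61.2, so these loci had similar levels per length in WT and unequal ones in the RNAi lines.

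**Figure D5:**
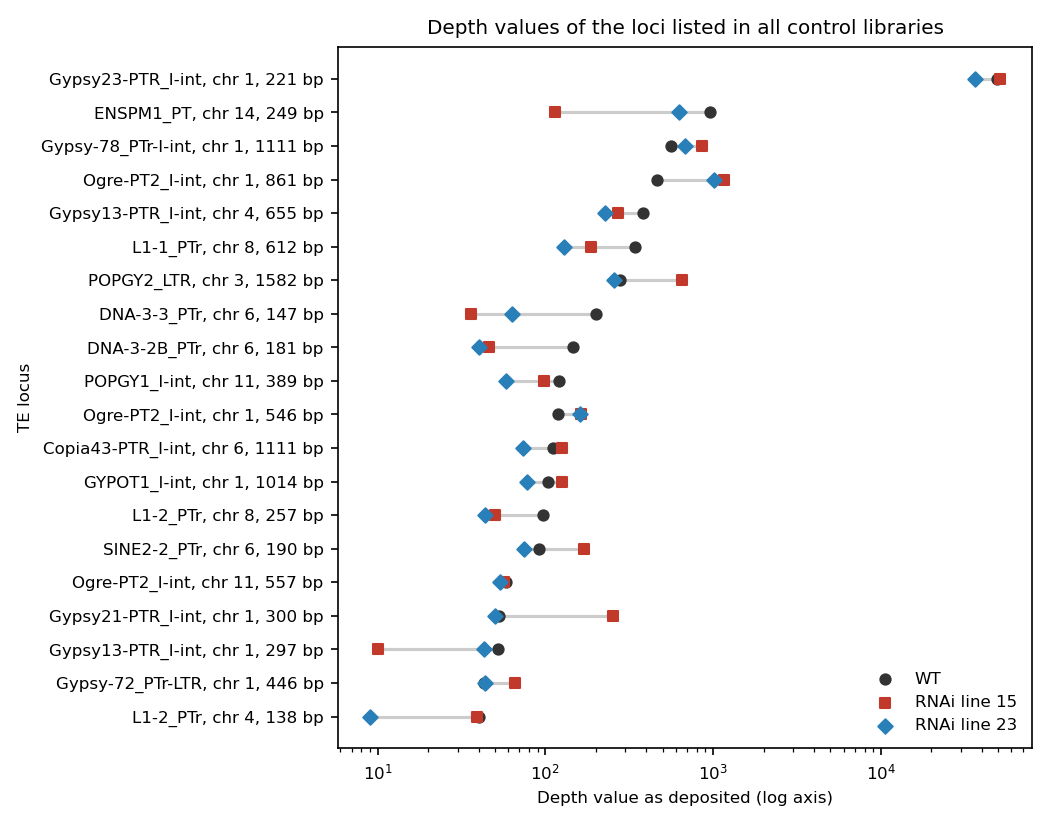
Depth value as deposited (log axis) in WT (circles), line 15 (squares) and line 23 (diamonds) of the 20 loci listed in all 3 control libraries, 1 row per locus with its chromosome and length and a grey line over the range. The Ogre-PT2_I-int locus of 861 bp is higher than WT in both RNAi lines, the DNA-3 loci are lower in both, and ENSPM1_PT is lowest in line 15.

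Among loci of WT and 1 line, SAT-1_PT on chromosome 11 (9097155 to 9103437), named for a satellite repeat, had depth values of 6927 in WT and 5202 in line 15 but split-read values of only 8 and 10. For Gypsy-72_PTr-LTR on chromosome 2 (5326804 to 5327529) depth was 130 and 266. Copia1-PTR_I-int on chromosome 3 (5805909 to 5808494) had a depth of 143 and 218 and split-read values of 74 and 147. Between WT and line 23, Gypsy-29_PTr-LTR on chromosome 4 (15931405 to 15932394) had 232 and 123, and L1-1_PTr on chromosome 7 (7370421 to 7371011) had 202 and 127. Gypsy13-PTR_LTR on chromosome 1 (49644326 to 49645064) differed most in split reads, with 8 in WT and 211 in line 23, and its depth values were 36 and 156.

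The leading loci of line 15 alone were 3 Gypsy LTRs and 2 DNA transposons. Gypsy-26_PTr-LTR on chromosome 6 (957048 to 959077) had a depth of 661, and ENSPM1_PT on chromosome 5 (11233521 to 11233805) had 312. Ogre-PT1_LTR on chromosome 5 (24658596 to 24659200) had 304, Gypsy-27_PTr-LTR on chromosome 15 (5951514 to 5952355) had 300 and DNA-3-1_PTr on chromosome 14 (14563883 to 14564058) had 248. Their split-read values lay between 4 and 28. Gypsy-27_PTr-LTR was listed again in line 15 after drought, at 214. DNA-3-1_PTr was listed in WT after drought, at 40.

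In line 23 alone the leading loci were DNA transposons of the DNA-3 group and Ogre LTRs. DNA-3-2_PTr on chromosome 3 (16293701 to 16293938) had a depth of 412 and a split-read value of 47, with its whole length covered. DNA-3-3_PTr had 170 on chromosome 8 (4688911 to 4689198) and 144 on chromosome 12 (2097798 to 2098097). Ogre-PT3_LTR on chromosome 12 (2461875 to 2463816) had 214 and Ogre-PT1_LTR on chromosome 19 (2979944 to 2980519) had 166. None of these 5 was listed in any drought library. Gypsy-71_PTr-LTR on chromosome 10 (2168968 to 2169236) had the highest split-read value of the line 23-only loci, 72, at a depth of 78.

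WT alone held loci of higher depth than either line alone. Gypsy-27_PTr-I-int on chromosome 13 (8689906 to 8698099) had 20299 in WT under control watering and was unlisted in both RNAi lines, yet all 3 drought libraries listed it, at 22796 for WT, 24823 for line 15 and 14317 for line 23. Its split-read value in WT control was 13. Gypsy-76_PTr-LTR on chromosome 15 (6424709 to 6430578) had 1142 with a split-read value of 242, and Gypsy21-PTR_I-int on chromosome 2 (17639269 to 17649825) had 632 with 260. Both were covered only to 0.802 and 0.803, near the lowest fraction listed. DNA-3-2B_PTr on chromosome 4 (3534056 to 3534164) had 828 and was listed after drought in line 23 alone, at 20. L1-1_PTr on chromosome 19 (6567231 to 6568126) had 607 and was listed again in WT after drought, at 535.

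By class, Gypsy made up 58.4% of the WT loci (50.04 to 66.4), 46.7% of the line 15 loci (39.04 to 54.6) and 48.6% of the line 23 loci (38.9 to 58.4). Copia made up 13.4% (8.40 to 19.97), 19.5% (13.8 to 26.3) and 22.0% (14.6 to 31.0). The intervals overlapped in every pair of lists for both classes. Within Copia the LTR-named part was 6 of 20 loci in WT (30%), 16 of 33 in line 15 (48.5%) and 12 of 24 in line 23 (50%), again with overlapping intervals. Gypsy showed less of a shift in the same direction, with 50.6%, 58.2% and 52.8% named for the LTR.

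Most families had few loci in any list, so differences between lists rest on small counts. Of 79 families, 33 were in all 3 lists, and 17 of those had no single locus in all 3. Gypsy-28_PTr had 8 loci for WT, 1 for line 15 and none for line 23, and its WT depth values ran from 5 to 573. Gypsy-76_PTr had 5, 1 and 1 loci, Gypsy21-PTR 9, 5 and 3, and L1-1_PTr 6, 3 and 3. These families had most loci in WT.

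The opposite was seen in 1 line or the other. SINE2-2_PTr had 6 loci for WT, 12 for line 15 and 3 for line 23, and Gypsy-71_PTr had 4, 9 and 4. Copia-56_PTr had 2, 6 and 2, Copia5-PTR 1, 5 and 1, and Gypsy-25_PTr 1, 5 and none, so line 15 was the high one for these 5 families. Copia-93_PTr had 2, 3 and 8 loci and was the family with the clearest excess in line 23. Of those 8 loci, 5 were in no other control list, as were 53.2% of all line 23 loci. Among its LTR loci, 3 were 251 bp long, all of them line 23-only.

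Other families of at least 5 loci in 1 list differed less. Gypsy-72_PTr had 9, 7 and 4 loci, Gypsy13-PTR 8, 6 and 7, ENSPM1_PT 6, 6 and 3, and DNA-3-3_PTr 4, 5 and 4. The Ogre families together had 15, 19 and 12 loci, and POPGY1, Copia43-PTR and the separate Ogre-PT1, Ogre-PT2 and Ogre-PT3 families each had between 3 and 7 in every list. The 3 families found in both RNAi lists and not in WT, Copia26, Copia48 and Gypsy15, were at different loci in the lines. Copia-56_PTr-LTR had 5 loci of the same length, 131 bp, all of them listed in line 15, 2 in line 23 and 1 in WT. Reads from near-identical copies may be placed at more than 1 of them, and the authors' handling of such reads is not known here, so counts within a family are uncertain.

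Neighbouring fragments were few. With a gap of at most 5000 bp, 32 loci (9.73%) fell into 15 groups, 7 of which had loci in all 3 lists. On chromosome 1, Gypsy21-PTR_I-int (WT and line 15), Ogre-PT1_I-int (line 15 only) and Ogre-PT2_I-int (all 3) lay within 2868 bp, so 1 region can contribute loci to several listing sets. The 3 neighbouring Gypsy-74 and Ogre-PT3 fragments on chromosome 19 (2955399 to 2956955) were all line 23-only.

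A split-read value above the depth value was found at 15 WT loci, 11 line 15 loci and 13 line 23 loci, of which 11, 6 and 9 had a depth under 20. The median split-read value was 9 in WT and 6 in either line. In the 32 loci shared by line 23 and WT, split-read values were at least 2-fold lower in line 23 at 14 and higher at 4, more lower ones than by depth. In the 47 shared by line 15 and WT they were at least 2-fold lower at 9 and higher at 8.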

How the data were processed

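Per the labels, Nextera XT libraries of amplified extrachromosomal DNA from CTAB extracts were read on a MiSeq, with 2 reads of 250 bp per fragment. The submitters' processing notes name Bowtie2, with no version. The sources used here give no genome build, counting tool or listing threshold, total reads were not used, and the summed values of a list of selected loci are not a sequencing depth.

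The authors deposited 2 coverage signals per locus, cov DOC and cov SR per the file headers, taken to mean depth of coverage and split reads. They are whole numbers and no header names a scaling. Tools for counts were not used. The deposited covered part of a locus runs from 0 to 1 and is a fraction, although its header says percent.

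Loci of the 3 control lists were matched by identical coordinates, and starts, deposited as counted from 0, are given counted from 1. Loci are called by their first name, which set the class. Python 3.11.15, pandas 2.3.3, numpy 2.4.6, scipy 1.17.1 and matplotlib 3.10.9 were used, and the scripts were tested on simulated lists. With 1 library per group there was no test. Fold rules of 2 and intervals of 95% (exact Poisson or Clopper-Pearson) describe sizes and counting error.

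Named loci were the 5 highest depth and 5 highest split-read values per list, all loci of both RNAi lines only, the 5 highest depths of each single-list set, the 3 highest mean depths of each set of WT and 1 line, and loci of all 3 lists past 2-fold from WT. Named families had at least 5 loci in 1 list. Values given for other loci and families were singled out after they were seen. Members and lists were chosen with earlier results of these data known.

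Alternatives were minimum depth 20, minimum split-read value 10, merging within 1000 bp, 1 bp overlap, weighting by length or depth, other scalings, split-read values, a 4-fold rule, and, added after the data were seen, a covered fraction of at least 0.9. No reference genome was used, so neither sequences nor gene positions are given.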

Additional observations from a re-analysis of the deposited data

Results flagged for a closer look

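Several measures lay on opposite sides of WT in the separate RNAi lines. With 1 library per line the difference between the lines was not tested, and both differences use the same WT library. Listed loci numbered 20 more than WT in line 15 and -40 relative to WT in line 23, but both lines lay below WT when a split-read value of at least 10 was required (57 and 35 against 73). The share of loci named as satellite or simple repeat differed from WT by 1.02 percentage points in line 15 and -1.34 in line 23, with 2 such loci for WT, 4 for line 15 and none for line 23. The median log2 depth ratio over WT at shared loci was 0.0711 in line 15 and -0.42 in line 23. The log2 depth ratio over WT was 0.0711 and -0.44 in lines 15 and 23 at Gypsy23-PTR_I-int (chromosome 1, 44984628), 2.27 and -0.0841 at Gypsy21-PTR_I-int (chromosome 1, 46571040), and 1.21 and -0.12 at POPGY2_LTR (chromosome 3, 2902731). All 4 negative depth ratios of line 23 turned positive when depth was divided by the sum of the list.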

How the results depend on the processing

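Of 153 recomputed values, 101 stayed within the counting interval of a share, within 1.5 times a count, or within the order-statistic interval of a median over loci, 48 moved and 4 turned direction. All 14 alternative shares of loci listed in a drought library lay within the counting interval of the reported one, which is wide. That of line 23-only loci went from 6.90% to 15.4% at a depth of at least 20 and to 3.85% at a covered fraction of at least 0.9, and that of WT and line 23 from 50% to 66.7% at the former. Matching by 1 bp overlap left the listing sets as they were. The 4 that turned were median log2 depth ratios. Line 23 over WT became 0.63 after division by the list sum and 1.98 without the highest locus, and line 23 over line 15 became 0.38 and 0.88. Line 15 over WT moved to 0.47 and 1.33.

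With a depth value of at least 20 the WT, line 15 and line 23 lists held 99, 110 and 69 loci, and with a split-read value of at least 10 they held 73, 57 and 35, so line 15 then fell below WT. Loci of WT, line 15 and line 23 only numbered 47, 55 and 26 at a depth of at least 20. With a covered fraction of at least 0.9, WT only and line 23 only held 47 and 26. Leaving out loci that a drought list of another genotype holds left 10 loci in both RNAi lines and 7 in WT and line 23.

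Weighted by depth, the shares in WT, line 15 and line 23 were 85.4%, 85.8% and 91.8% for Gypsy, 0.985%, 2.29% and 2.19% for Copia, 2.30%, 1.54% and 1.44% for non-LTR, 3.47%, 2.72% and 4.16% for DNA transposons, and 0.0565%, 0.190% and 0.447% for Helitrons. Satellites and simple repeats had 7.81% in WT and 7.51% in line 15. Weighted by length, DNA transposons had 3.10%, 6.80% and 6.78%, and satellites and simple repeats 6.85% in WT and 8.31% in line 15. On the same weighting non-LTR had 9.40%, 6.05% and 8.08%, and Gypsy 62.8%, 51.1% and 61.7%, so line 23 was then close to WT for Gypsy.

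A 4-fold rule left 2 loci higher and 3 lower for line 15 over WT, and 1 higher and 1 lower for line 23 over WT. For line 23 over line 15 it left 3 higher and 2 lower. Centring on the median left 4 higher and 3 lower for line 23 over WT. By split-read value 4 were higher and 14 lower for line 23 over WT, and 2 higher and 15 lower for line 23 over line 15.

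No paired analysis was possible because each group is 1 library and the labels carry no replicate numbers. Leaving out a replicate was not possible for the same reason. The limits are that depth is unscaled, total reads are not used here, an unlisted locus has no value, and genotype cannot be told apart from library or transformant.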

Other observations

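The DNA-3 group of DNA transposons held 17 of the 329 loci, 6 for WT, 11 for line 15 and 6 for line 23. One of them, DNA-3-3_PTr on chromosome 3 (12264531), was listed under control watering in line 15 alone, at a depth of 38, and after drought in line 15 at 6033 and in line 23 at 1577. It was singled out after its values were seen. The hAT transposons held 2 WT loci, 5 of line 15 and none of line 23, and L1 elements 12, 7 and 7. Chromosome 1 held 52 of the 329 loci, 26 of them listed in WT, 36 in line 15 and 19 in line 23.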
